A study of Mus musculus with 25 samples.

Results

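Of the 75466 pairs of 10 kb bins listed for H3K27ac HiChIP in mouse embryonic stem (ES) cells, 17456 were missing from the H3K27ac list of mouse embryonic fibroblasts (MEFs) and yet stood, with the same bin starts, in the MEF Hi-C list. These 17456 pairs, 23.1% of the ES list, are the members described here: contacts that carried listed H3K27ac signal in ES cells, not in fibroblasts, but that the fibroblast Hi-C list already held. In that list 1986 of them (11.4%) had an authors' FDR under 0.1, against 12.6% of all MEF Hi-C pairs. The others were listed only on a deposited p-value under 0.01 from the authors' pair test. Members held fewer pairs at 100 kb or more (3.88% against 11.5%), where the share with such an FDR was highest. Within distance that share was higher for members: 9.85% against 7.72% at 10 kb and 7.52% against 5.31% at 20 to 30 kb. It was 11.6% against 6.77% at 40 to 90 kb and 62.1% against 59.6% at 100 kb or more. The remaining ES pairs made 3 reference classes: 40109 pairs in neither MEF list, 9838 in both MEF lists, and 8063 in the MEF H3K27ac list alone. The members were thus chosen by the counts and p-values behind the ES H3K27ac, MEF H3K27ac and MEF Hi-C lists, and values from those lists are given as a description. The only test that uses them is a fit of ES against MEF Hi-C over all pairs in both Hi-C lists, and nothing is read from its count of members. Absence from a list means only that a pair did not pass the authors' filters, and the MEF H3K27ac libraries were shallower (75 and 105 M contacts) than the ES ones (166 and 168 M).

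H3K27ac is an acetyl mark on histone H3 found at active promoters and enhancers, and H3K27ac HiChIP reads out contacts in which at least 1 end carries it. Hi-C reads out contacts without an antibody, so a pair can be close in space, and seen in Hi-C, while neither end is acetylated. Contacts between a promoter and a distal element that exist before the element is active are called preformed contacts, and contacts that appear with the active state are called de novo contacts. KLF4 is a zinc finger transcription factor that binds GC-rich CACCC-type sites, is 1 of the 4 OKSM reprogramming factors (OCT4, KLF4, SOX2 and MYC), and is part of the network that maintains naive pluripotency.

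The MEFs came from rtTA3-OKSM embryos at day E13.5, heterozygous for an Oct4-GFP reporter, the OKSM cassette and rtTA3, which the design text gives as Rosa26-M2rtTA/Col1a1-OKSM, and were used at passage 3 without doxycycline. Day 3 and day 6 cells were such MEFs given doxycycline, which switches the cassette on, with ascorbic acid; day 3 cells were taken in bulk and day 6 cells were sorted for SSEA1, so day and sorting cannot be told apart. ES cells were the V6.5 line in 2i medium. Cells labelled TKO, a label the sources used here do not spell out, were V6.5 in 2i, without (0 h) or with 24 h of doxycycline. There were 2 H3K27ac HiChIP libraries each for MEF and ES and 3 each for TKO 0 h and TKO 24 h, 3 KLF4 HiChIP libraries for day 3 and 4 each for day 6 and ES, and 2 Hi-C libraries for each of MEF and ES. HiChIP depth ran from 48.7 to 181 M contacts and the listed Hi-C counts from 5576165 to 10015967, and libraries were counted as 1 sample where they differed by no more than sampling noise while others of their group differed by more (ES KLF4 replicates 1 and 2, and 3 and 4; TKO 0 h replicates 2 and 3; TKO 24 h replicates 1 and 3). No expression was measured in these files, so the cell labels could be read only from contacts: of 15 fibroblast genes placed by RefSeq 13 had MEF H3K27ac pairs at their promoter bins and 3 had ES pairs, and of 18 pluripotency genes 3 had MEF pairs and all 18 had ES pairs. The exceptions were Sparc, with 8 pairs in each list, Ccn1, with 2 in each, and S100a4, with 4 MEF and 2 ES pairs. The fibroblast genes Col3a1 and Pdgfra had 0 MEF pairs, and Nanog, Klf2 and Klf4 had 1, 1 and 2 MEF pairs. Of 6 fibroblast genes placed only by the authors' annotation, 6 had MEF pairs and 3 had ES pairs. Among them Fn1 went the other way, with 1 MEF pair and 5 ES pairs. Of 5 pluripotency genes placed only in this way, 0 had MEF pairs and 5 had ES pairs.

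Promoters of 4 genes that the results below turn on are printed because each lies in a bin with several members and the 4 differ in KLF4 listing and in KLF-type motifs. Each is the 250 bases before the RefSeq transcription start (GRCm38.p6, the build mm10 named in the submitters' processing notes), 5′ to 3′ on the gene's own strand, with capitals for GGGTGTG or GGGCGTG on either strand (read as CACACCC or CACGCCC). Fgf4 is at chr7:144861136-144861385 on the plus strand, Tcf7l1 at chr6:72789046-72789295 on the minus strand, Tfcp2l1 at chr1:118627695-118627944 on the plus strand and Eras at chrX:7928608-7928857 on the minus strand.
Fgf4: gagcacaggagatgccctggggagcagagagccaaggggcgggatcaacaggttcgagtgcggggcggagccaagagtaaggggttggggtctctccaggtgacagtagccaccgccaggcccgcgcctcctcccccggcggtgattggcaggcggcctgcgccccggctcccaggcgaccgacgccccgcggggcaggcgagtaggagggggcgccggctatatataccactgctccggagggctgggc
Tcf7l1: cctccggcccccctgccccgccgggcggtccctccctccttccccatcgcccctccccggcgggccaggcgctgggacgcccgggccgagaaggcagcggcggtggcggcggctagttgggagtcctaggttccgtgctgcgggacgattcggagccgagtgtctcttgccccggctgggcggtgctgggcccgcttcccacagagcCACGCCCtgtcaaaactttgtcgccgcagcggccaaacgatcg
Tfcp2l1: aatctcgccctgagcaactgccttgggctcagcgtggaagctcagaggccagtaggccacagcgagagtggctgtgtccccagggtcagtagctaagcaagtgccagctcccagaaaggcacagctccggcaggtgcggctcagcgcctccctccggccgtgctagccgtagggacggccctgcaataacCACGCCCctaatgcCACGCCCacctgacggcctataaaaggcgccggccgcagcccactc
Eras: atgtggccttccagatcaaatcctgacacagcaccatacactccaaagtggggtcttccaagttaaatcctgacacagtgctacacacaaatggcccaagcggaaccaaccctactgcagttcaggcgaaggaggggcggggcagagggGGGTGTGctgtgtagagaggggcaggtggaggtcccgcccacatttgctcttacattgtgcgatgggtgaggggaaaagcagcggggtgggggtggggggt
Tfcp2l1 held 2 CACGCCC matches, 60 and 46 bases before its start, Tcf7l1 held 1 at 43 bases, Eras held 1 GGGTGTG at 101 bases, and these letters did not occur in the Fgf4 window. Over all RefSeq promoters of this length 13.8% (4527 of 32851) held at least 1 match, against 16.0% of those of protein-coding genes and 18.5% (95% Wilson interval 17.5 to 19.7) of those of protein-coding genes with a member at their bin. A match describes letters only.

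Members were mostly short contacts. Their median anchor distance was 20 kb (quartiles 10 and 40 kb, longest 520 kb), and 31.2% joined neighbouring bins, against 20.5% of the ES pairs in neither MEF list and 34.7% of the ES pairs in both. Pairs of 50 kb or more made up 19.5% of members and 34.5% of the ES pairs in neither MEF list. Members rarely left a domain: 0.936% crossed a MEF domain border of the authors' TAD list (0.996% of all MEF Hi-C pairs), against 6.08% of ES pairs in neither MEF list, and at 100 kb or more the shares were 1.57% and 9.83%. The MEF domains come from the fibroblast Hi-C that also chose the members; with ES domains the shares over all distances were 0.706% and 3.03% (1.57% of all MEF Hi-C pairs). Most members linked bins without a promoter placed by RefSeq: 67.1% had a RefSeq promoter at neither end, 27.8% at 1 end and 5.16% at both ends, while 58.6% of ES pairs in neither MEF list had none. Some genes, such as Cdh1, Sall4 and Rpl3, were placed only by the authors' annotation, so a bin without a RefSeq promoter can still hold a gene start.

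**Figure D1:**
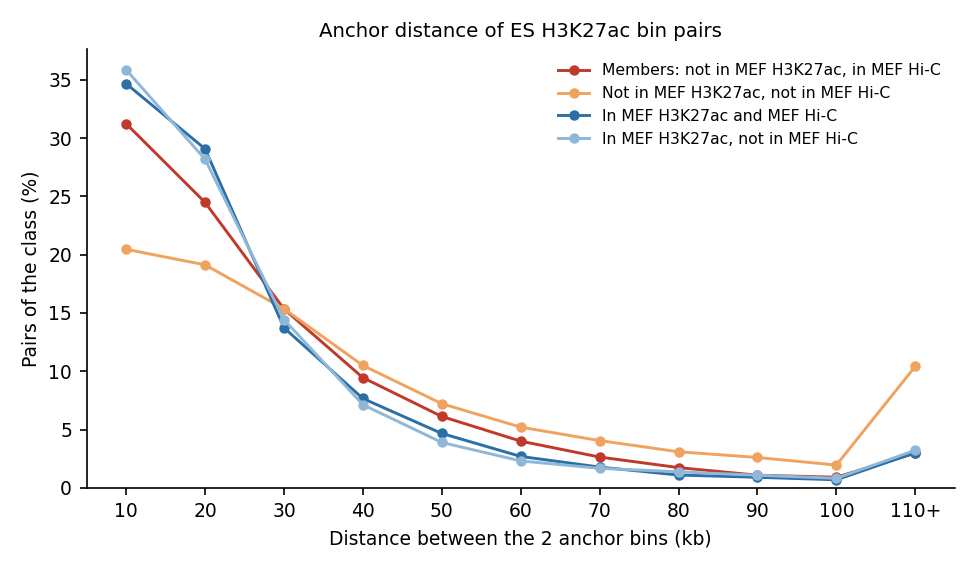
Share of each class of ES H3K27ac pairs (%, y axis) by distance between the anchor bins (kb, x axis; the last point pools 110 kb and more), 1 line per class. Members fall from 31.2% at 10 kb and run between the ES pairs in neither MEF list, which start at 20.5%, and those in both, which start at 34.7%.

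The members spread over 18253 bins, of which 55.3% held a single member. The fullest bin, on chromosome X at chrX:8000001-8010000, held 13 members of its 21 ES pairs, reached up to 90 kb, and none of its members was in a KLF4 list. The next, chr7:144850001-144860000, lies beside the Fgf4 promoter bin and held 12 members of 13 ES pairs, 4 of them in the ES KLF4 list. Bins at chr12:110540001-110550000, chr14:20180001-20190000 (the Kcnk5 promoter), chr17:29170001-29180000 and chr17:31800001-31810000 held 11 members each. Chromosome X had the highest share of members in its ES list, 37.7%, and chromosome 19 the lowest, 10.6%. The authors' CPM filter acts within each chromosome, but with 1 cutoff of 39 counts for all chromosomes the shares were 37.2% and 13.4%.

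Members differed in whether their ends lay in other listed fibroblast H3K27ac pairs. Neither end lay in any MEF H3K27ac pair for 6275 members (35.9%), 1 end did for 5689 (32.6%) and both ends did, with other partners, for 5492 (31.5%). A MEF H3K27ac pair with both anchors within 1 bin existed for 39.6% of members, and leaving those out kept 10542. The promoter bins of Dnmt3l, Fgf4 and Tfcp2l1 were in 0 listed MEF H3K27ac pairs, whereas the bin of Il6st, the shared receptor chain of the LIF pathway, had 15. In MEF Hi-C the median ratio of observed to expected count, the authors' distance-normalized ratio, was 1.80 and 1.79 (2 libraries) for members with no such end, 1.91 and 1.87 with 1, and 2.02 and 1.96 with both. These groups were not matched for distance, with medians of 20, 20 and 30 kb. The ratio of members itself went from 1.69 and 1.67 at 10 kb to 2.30 and 2.24 at 40 to 90 kb, and the part of distance was not tested.

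Most members were also listed in ES Hi-C and in the TKO lists. ES Hi-C held 13404 of them, 76.8% (76.2 to 77.4), against 55.9% of all MEF Hi-C pairs, 82.7% of the ES pairs in both MEF lists and 33.4% of those in neither. The gap to all MEF Hi-C pairs was present at each distance, from 75.5% against 64.9% at 10 kb to 67.8% against 39.2% at 100 kb and more. The rule takes only members that the ES H3K27ac list holds, a condition that all MEF Hi-C pairs do not have to meet. It thus favours a higher share for members, and this gap is a description only. The separate H3K27ac libraries of TKO cells held 76.4% at 0 h and 73.8% at 24 h, near the 77.6% and 72.3% of the whole ES list. ES Hi-C and both TKO lists together held 51.0% of members, and neither TKO list held 16.4%.

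**Figure D2:**
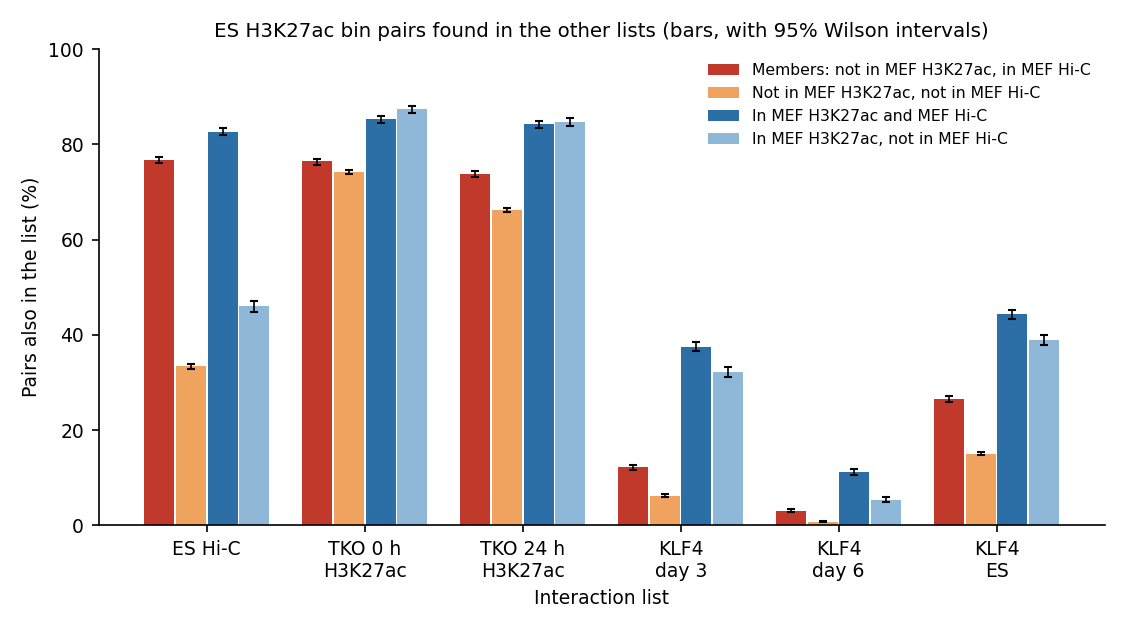
Share of each class of ES H3K27ac pairs (%, y axis) found in 6 other lists (x axis), with 95% Wilson intervals that cover counting error only. Members reach 76.8% in ES Hi-C and stay below the pairs of both MEF lists in all 3 KLF4 lists, at 12.2% against 37.5% on day 3.

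The MEF Hi-C values helped to choose the members, so the Hi-C values that follow, for members that both Hi-C lists hold, are a description. In MEF their median ratio was 1.94 and 1.90, in ES it was 1.89 and 2.01, and the log2 difference, ES minus MEF, had a median of 0.01, against -0.05 over all pairs in both lists. Both ES libraries lay above both MEF libraries for 17.8% of these members, where the background over all such pairs was 12.5%, and below for 15.7%, where it was 21.4%. At 100 kb and more the MEF medians were 4.81 and 4.65 and the ES medians 3.67 and 4.0, and over all such pairs they were 4.92 and 4.80 against 3.64 and 3.82. This gap depends on the authors' distance normalization: on the scale of scaled counts the median log2 change at 100 kb and more, ES minus MEF, was -0.05 for members and -0.11 for all such pairs. At 10 kb it was -0.11 and -0.13, at 20 to 30 kb 0.09 and 0.06, and at 40 to 90 kb 0.14 and 0.07. Single pairs can likewise stand further apart in the ratio than in the counts, because the expected counts of the libraries differ. Members that ES Hi-C lacked had been slightly weaker in MEF, at 1.78 and 1.75.

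**Figure D3:**
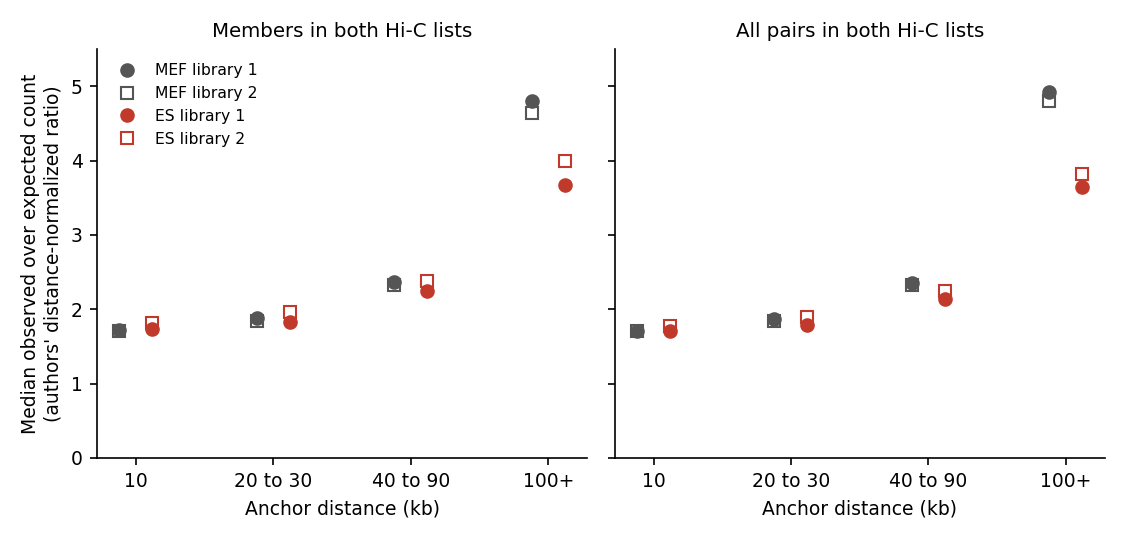
Median observed over expected Hi-C count (the authors' distance-normalized ratio, y axis) by anchor distance (kb, x axis) for members (left) and for all pairs in both Hi-C lists (right), 1 point per library. The libraries lie close together up to 90 kb, and at 100 kb and more both ES libraries lie below both MEF libraries in each panel.

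Across all pairs in both Hi-C lists, the quasi-likelihood test of edgeR called 0.0322% at an adjusted p (after Benjamini and Hochberg) under 0.05, 0.0209% higher and 0.0113% lower in ES. Of the 13244 members in that fit 1 was called, higher in ES, and nothing is read from this count, since the MEF Hi-C counts are part of the rule. Members had a median of 29 counts in each MEF library. The called pair joined neighbouring bins at chr16:35540001-35550000, the promoter bin of Sema5b, a transmembrane semaphorin, and chr16:35550001-35560000. It had 31 and 44 counts in MEF Hi-C and 111 and 132 in ES Hi-C, and no KLF4 or TKO list held it.

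A promoter bin with at least 1 member was found for 4954 of 27025 RefSeq genes (18.3%), and for 46.9% of the genes that had any ES pair. Among 18 pluripotency genes placed by RefSeq all had ES pairs and 8 had members (44.4%). They were Fgf4 with 10 members of 12 ES pairs, Dnmt3l (9 of 15), Lin28a (4 of 5), Klf2 (3 of 11), Tfcp2l1 (3 of 7), Nr5a2 (2 of 9), Utf1 (2 of 7) and Esrrb (1 of 6). No member touched Nanog, Pou5f1, Sox2, Klf4, Zfp42, Mycn, Nr0b1, Tet1, Tet2 or Tdgf1. These bins were mostly missing from MEF Hi-C as well: Pou5f1, Sox2, Zfp42, Tet1, Tet2 and Tdgf1 had 0 pairs there, Nanog, Klf4 and Nr0b1 had 1 each and Mycn had 2. Of 5 more pluripotency genes placed only by the authors' annotation, Sall4 had 2 members and Prdm14 had 1.

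Among 18 genes of signalling and the exit from naive pluripotency 9 had members, led by Tcf7l1, a repressor in the Wnt pathway, with 9 of its 17 ES pairs. Nodal, a ligand of the TGF-beta family, had 4 of 21, and Lifr, the receptor for the cytokine LIF, had 4 of 12. None of 15 fibroblast genes and none of 16 mesenchymal transcription factor genes placed by RefSeq had a member, although only 3 and 7 of them had any ES pair. Of those placed by the authors' annotation alone, 0 of 6 fibroblast genes and 1 of 4 mesenchymal factor genes (Tead1, a nuclear factor of the Hippo pathway) had a member. The rule drops every pair in the MEF H3K27ac list. That list held 7 of 8 ES pairs at Sparc, 2 of 2 at Ccn1 and 6 of 8 at Fos, but 3 of 10 at Jund. The rule thus favours few members at genes with MEF pairs, and their absence is a description only. Of 16 epithelial genes, which are switched on as fibroblasts lose mesenchymal character, 11 had members, as did all 5 placed by the authors' annotation alone. Among these were Dsp (4), encoding desmoplakin, Spint1 (4), a protease inhibitor, and Cdh1 (6 of 11 ES pairs), encoding E-cadherin. Of 18 chromatin genes 11 had members, with 5 each at Ep300, an H3K27 acetyltransferase, and Uhrf1, a cofactor of maintenance DNA methylation. Of 17 KLF and SP family genes 7 had members, 6 of them at Klf15 (of 7 ES pairs), 6 at Klf1 and 5 at Sp2. Of 16 ribosomal protein genes 8 had members. The authors' annotation alone added 1 of 6 signalling genes (Lefty2, an inhibitor of Nodal), 2 of 6 chromatin genes, 3 of 4 KLF and SP family genes and 6 of 8 ribosomal protein genes.

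Outside the lists, the most members were at C77080 (15 of 26 ES pairs) and at Sema4b, encoding a semaphorin (14 of 33). Alpl, encoding the alkaline phosphatase used to stain pluripotent cells, had 12 of 13. Gpx4, encoding a glutathione peroxidase that reduces lipid peroxides in membranes, had 12 of 32. At Eras, a Ras-like gene of ES cells, 11 of 14 ES pairs were members, and at Kcnk5, a potassium channel gene, 11 of 12. The epithelial transcription factor genes Elf3 and Grhl3 had 10 of 12 and 9 of 9. At Alpl, Eras, Kcnk5, Elf3 and Grhl3 the MEF H3K27ac list held 0 pairs.

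Fgf4 encodes a growth factor that pushes ES cells to leave the naive state. Its 10 members reached 70 kb to 1 side and 30 kb to the other (the other ends included the promoter bins of Fgf3 and Fgf15), and 9 of them were in ES Hi-C. The strongest joined the promoter bin to the bin before it, at 3.24 and 3.19 counts per M contacts in the ES H3K27ac libraries, that is, the raw count over the contact total of the library. Its Hi-C ratio was 2.27 and 2.52 before reprogramming and 1.74 and 1.62 in ES cells, so both MEF libraries were above both ES libraries, and on the count scale the log2 change was -0.64. The MEF Hi-C values helped to choose this pair, so this gap is a description, and it was not called. KLF4 HiChIP gave this pair 0.405, 0.405 and 0.310 counts per M contacts on day 3 and 0.584, 0.366, 0.804 and 0.716 in ES. The ES libraries were higher but for replicate 2, which overlapped day 3, with a log2 change of 0.79 (SE 0.21, edgeR adjusted p = 0.00764). The call was lost without any 1 of 4 of the 5 samples, and without ES replicates 3 and 4 the log2 change fell to 0.36 (edgeR adjusted p = 0.475). In TKO cells the pair had 3.32, 3.72 and 3.55 counts per M contacts at 0 h and 2.14, 2.64 and 2.60 at 24 h, with no overlap. The log2 change was -0.38 (SE 0.10, edgeR adjusted p = 0.0165), and edgeR's adjusted p was 0.064 without 0 h replicate 1, 0.374 without 0 h replicates 2 and 3 and 0.309 without 24 h replicates 1 and 3.

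Tfcp2l1, a transcription factor gene of naive pluripotency, had 3 members, all within 30 kb downstream and none in a KLF4 list, although its promoter window held the 2 motif matches printed above. The pair at 20 kb had 2.05, 2.19 and 2.32 counts per M contacts in TKO cells at 0 h and 1.27, 1.53 and 1.38 at 24 h. All 24 h libraries were lower, with a log2 change of -0.51 (SE 0.12, edgeR adjusted p = 0.00194). The pair at 10 kb had 1.42, 1.76 and 1.64 at 0 h and 1.11, 1.17 and 0.961 at 24 h, again with no overlap (log2 change -0.44, edgeR adjusted p = 0.026). Both calls were lost without 0 h replicates 2 and 3 (edgeR adjusted p = 0.173 for the pair at 20 kb and 0.548 for that at 10 kb) and without 24 h replicates 1 and 3 (0.226 and 0.443).

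At Tcf7l1 the 9 members all pointed to 1 side and were long, with a median of 100 kb and a reach of 150 kb. The farthest, to chr6:72630001, had MEF Hi-C ratios of 6.10 and 5.30, was in the day 3 KLF4 list and was listed neither in ES Hi-C nor in ES KLF4. Day 3 KLF4 held 4 of the 9 and ES KLF4 held 2. At Eras the 11 members reached 130 kb. The one at 90 kb had MEF Hi-C ratios of 5.11 and 7.97 and ES ratios of 5.72 and 9.52, and no KLF4 list held any of the 11. The plot of members around these promoters shows the difference between Fgf4, where most members near the promoter were in a KLF4 list, and Tfcp2l1 and Eras, where none was.

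**Figure D4:**
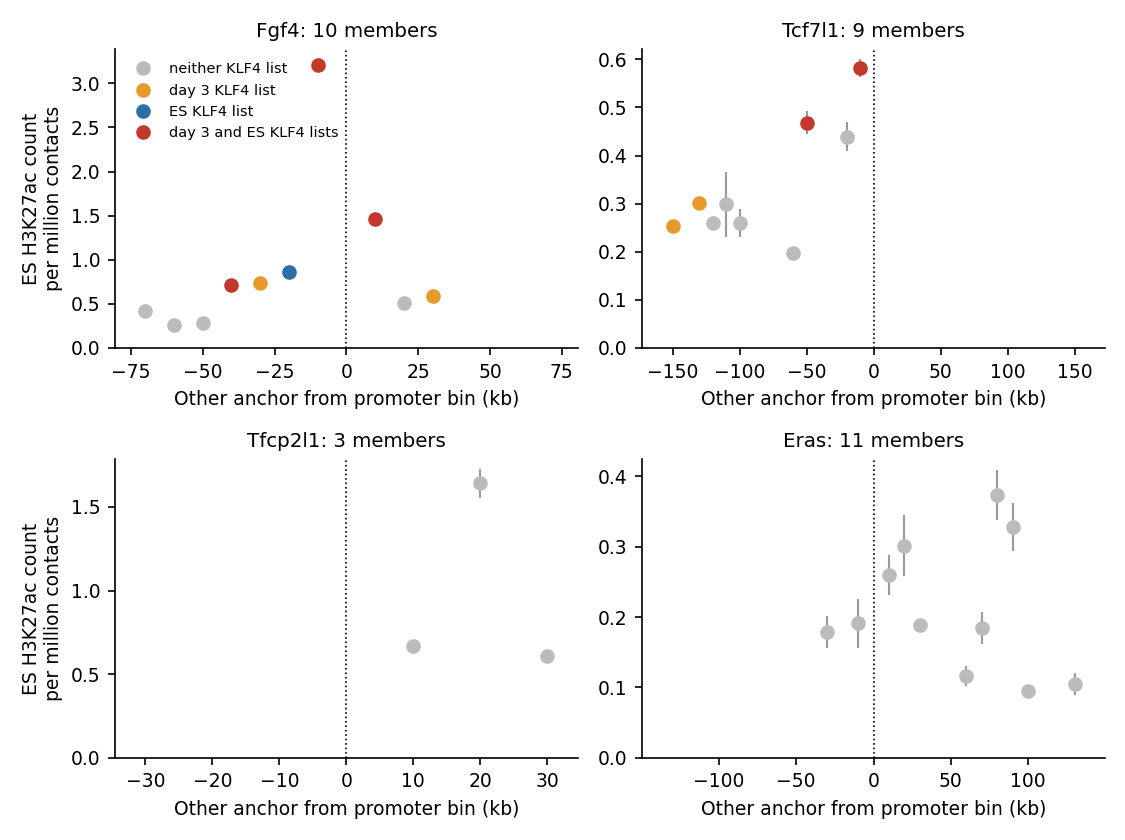
Members at the promoter bins of Fgf4, Tcf7l1, Tfcp2l1 and Eras: ES H3K27ac count per M contacts (y axis; point at the mean of 2 libraries, line between them) by position of the other anchor (kb, x axis, in genome direction), coloured by KLF4 list. Fgf4 has 10 members with the strongest next to the promoter bin, and all 3 members of Tfcp2l1 and all 11 of Eras are grey, in no KLF4 list of day 3 or ES.

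KLF4 lists held a minority of members. Day 3 KLF4 held 2128 (12.2%, 11.7 to 12.7), day 6 held 542 (3.10%, 2.86 to 3.37) and ES held 4645 (26.6%, 26.0 to 27.3). The whole ES H3K27ac list gave 14.5%, 3.14% and 24.1%. The ES pairs in both MEF lists were above the members, at 37.5%, 11.2% and 44.3%. Pairs in the MEF H3K27ac list alone, absent from MEF Hi-C, were also above, at 32.2%, 5.41% and 38.9%. Those in neither were below, at 6.25%, 0.718% and 15.1%. At 10 kb the day 3 shares were 13.3% for members and 35.8% for the pairs in both MEF lists. They were 34.96% for MEF H3K27ac alone and 8.63% for neither, so the order was the same at this distance. The classes also differed in median ES H3K27ac CPM (2 libraries). It was 5.48 and 5.67 for members, 6.75 and 6.93 for both, 6.77 and 6.97 for MEF H3K27ac alone. For neither it was 4.998 and 5.10, and the part of this signal in the order was not tested. The day 6 list is short (4047 pairs), which limits its share.

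Of the members, 11709 (67.1%) were in no KLF4 list, 3400 (19.5%) in the ES list alone, 921 in day 3 alone, 884 in day 3 and ES and 218 in all 3. Of members in the day 3 list 51.8% (49.7 to 53.9) were also in the ES KLF4 list. This share was 65.4% (63.9 to 66.9) for the ES pairs in both MEF lists, 59.3% for MEF H3K27ac alone and 43.2% for neither. Both the H3K27ac and the MEF Hi-C values below helped to choose the members and are a description. Members in the ES KLF4 list had median ES H3K27ac CPM of 6.89 and 7.16 and those in no KLF4 list 5.08 and 5.24. Their MEF Hi-C ratios were 1.85 and 1.84 against 1.91 and 1.87. These were not matched for distance, and the ES KLF4 share itself went from 33.9% of members at 10 kb to 18.1% at 40 to 90 kb.

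The 6 members of 30 kb or more in all 3 KLF4 lists with the most day 3 signal included the bins of Sost, which encodes the Wnt inhibitor sclerostin, Dact2, a regulator of Wnt and TGF-beta signalling (2 pairs), and Rpl3, a ribosomal protein gene. These 6 pairs were chosen by their day 3 counts, which favours lower values on day 6 and in ES. Their changes from day 3, with the edgeR p-values, are thus a description only. The 40 kb pair at Sost, from chr11:101920001-101930000 to chr11:101960001-101970000, had 0.405, 0.479 and 0.432 counts per M contacts on day 3, 0.164 to 0.255 on day 6 and 0.389 to 0.490 in ES. Every day 6 library was below every other, but day 6 values per contact total were lower for pairs in general, and edgeR's adjusted p was 0.0876 against day 3 and 0.205 against ES. In Hi-C both MEF libraries, with ratios of 4.3 and 3.8, were above both ES libraries, with 2.32 and 2.13, a gap of -0.40 on the log2 scale of scaled counts. The MEF Hi-C values helped to choose this pair, so the gap is a description, and it was not called (edgeR adjusted p = 0.882). The 30 kb pair at Rpl3 fell from day 3 to ES (log2 change -0.73, edgeR adjusted p = 0.0466), while the pair joining the Rpl3 bin to the next rose, from 0.331, 0.427 and 0.388 to 0.664, 0.945, 0.686 and 0.637 (log2 change 0.82, edgeR adjusted p = 0.00432). The first call was lost without any 1 sample (edgeR adjusted p from 0.0524 to 0.345) and the second without day 3 replicate 1 (0.0525).

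KLF4 contact strength was compared for pairs that both lists hold. Between ES and day 3, edgeR called 7.17% of 7387 pairs, 3.07% higher and 4.1% lower in ES. Of 1102 members 54 (4.90%) were higher and 21 (1.91%) lower, with a median log2 change of 0.07, against 0.01 over all pairs. All pairs include 1246 outside the ES H3K27ac list, with 4 higher, 83 lower and a median of -0.13, which members cannot include. The rule asks for an ES listing without a MEF H3K27ac one, which can favour ES over MEF-derived cells. This contrast is thus a description, and the ES pairs in neither MEF list had a median of 0.10. In the ES pairs of both MEF lists 66 of 2414 were higher and 127 lower, and in those of neither 55 of 1084 were higher and 17 lower. The members called fell from 75 to 29, 32 and 10 without day 3 replicates 1, 2 and 3 and to 36 without ES replicates 3 and 4, and DESeq2 called 8. Higher calls outnumbered lower ones without day 3 replicate 1 (19 and 10), day 3 replicate 2 (20 and 12) and ES replicates 3 and 4 (26 and 10), but not without day 3 replicate 3 (5 and 5) or in DESeq2 (3 and 5). Members at listed genes were few here: of 9 tested at epithelial genes placed by either source 2 rose, both at Cdh1, and of 4 at pluripotency genes 1 rose, at Fgf4.

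Among members with higher KLF4 signal in ES, the largest change was at Platr19, a noncoding RNA gene, in a 30 kb pair from chr12:12780001-12790000 to chr12:12810001-12820000. It had 0.147, 0.155 and 0.105 counts per M contacts on day 3 and 0.378, 0.309, 0.461 and 0.441 in ES, with no overlap (log2 change 1.60, SE 0.24, edgeR adjusted p = 6.76e-07). Cdh1 had a 30 kb pair from its promoter bin to chr8:106630001-106640000 with 0.147, 0.206 and 0.172 on day 3 and 0.424, 0.424, 0.396 and 0.343 in ES. These groups did not overlap either (log2 change 1.08, SE 0.23, edgeR adjusted p = 0.000551), and the calls at Platr19 and at this Cdh1 pair held without any 1 sample. A 170 kb pair from the bin of Mtnr1a, a melatonin receptor gene, to chr8:45230001-45240000 rose by 1.08 on the log2 scale (SE 0.25, edgeR adjusted p = 0.00152), with 0.147, 0.191 and 0.105 on day 3 and 0.229 to 0.422 in ES. Its call was lost without day 3 replicate 3 (edgeR adjusted p = 0.12) or ES replicates 3 and 4 (0.142). The pairs at Gipc3 (1.13) and at chr7:13010001-13020000 (1.06) lost theirs without day 3 replicate 3 (edgeR adjusted p = 0.0737 and 0.082).

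The largest fall was at Cxadr, which encodes an adhesion protein of epithelial junctions, in a 40 kb pair from chr16:78260001-78270000 to chr16:78300001-78310000. It had 0.809, 0.699 and 0.510 counts per M contacts on day 3 and 0.206, 0.154, 0.198 and 0.216 in ES. Every day 3 library was above every ES library (log2 change -1.70, SE 0.22, edgeR adjusted p = 8.61e-09). Pairs at chr12:21180001-21190000 (-1.47), at Podxl, a sialomucin gene (-1.26), and at Os9, whose product acts in protein degradation at the endoplasmic reticulum (-1.24), also fell. These 4 calls held without any 1 sample. Podxl varied most in ES, from 0.0396 to 0.366, all below the lowest day 3 value of 0.386. The other fall, on chromosome X at Gm33135, did not hold without day 3 replicate 1 or 3 or ES replicates 3 and 4 (edgeR adjusted p = 0.0853, 0.233 and 0.357).

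Day 6 gave few comparable members. Between ES and day 6, edgeR called 3.37% of 2076 pairs (2.6% higher and 0.771% lower in ES), and of 361 members 6 were higher and 4 lower. Between day 6 and day 3 it called 5.37% of 2571 pairs (1.32% higher and 4.05% lower on day 6), and of 321 members 11 were higher and 4 lower. In the ES pairs of both MEF lists 9 of 838 were higher and 63 lower on day 6. These directions depend on the scaling: with contact totals alone the median log2 change of all pairs was 0.58 for ES against day 6 and -0.58 for day 6 against day 3. The members then split 202 higher and 0 lower, and 3 higher and 153 lower. No pair of the 4 day 6 libraries differed beyond sampling noise, so the rule above, which needs other libraries of the group to differ, joined none, and p-values with day 6 rest on counting 4 samples. Without any 1 day 6 library the ES against day 6 count of 10 fell to between 2 and 5, and without ES replicates 1 and 2 it was 21; for day 6 against day 3 the count of 15 fell to 7 without day 6 replicate 4.

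In TKO cells, edgeR called 2.62% of 67728 pairs in both lists, 0.576% higher and 2.05% lower after 24 h of doxycycline. Of 11632 members 94 (0.808%) were higher and 230 (1.98%) lower, with a median log2 change of 0.02, near the background of all pairs. With contact totals alone the split was 41 higher and 461 lower and the median of all pairs moved to -0.10. The ES pairs in neither MEF list were lower in 801 of 24172 (3.31%). Without 24 h replicates 1 and 3 the members called fell from 324 to 70, without 0 h replicates 2 and 3 to 74 and without 24 h replicate 2 to 182, and DESeq2 called 25. Members at pluripotency genes had a median log2 change of -0.14 over 27 tested, 3 of them called lower (1 at Fgf4 and 2 at Tfcp2l1) and 0 higher. Of 23 at epithelial genes 1 was lower, at Cdh1, and 0 were called among 20 at signalling, 22 at chromatin, 27 at KLF family and 17 at ribosomal protein genes. The medians of these lists were -0.14 for ribosomal protein, -0.08 for epithelial, -0.03 for KLF family, -0.02 for signalling and 0.01 for chromatin genes, so the pluripotency median was not apart from all the others.

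Among members the falls lay mostly with KLF4-listed pairs. Of 3697 members in the ES KLF4 list 151 (4.08%) were lower and 18 higher at 24 h, and of 7935 outside it 79 (0.996%) were lower and 76 higher. The other ES pairs showed the same order, at 4.73% and 1.90% lower. ES KLF4-listed members also had higher H3K27ac signal, as given above, and its part in this difference was not tested. By distance, 3.12% of members at 10 kb were lower, 1.19% at 20 to 30 kb, 1.55% at 40 to 90 kb and 2.31% at 100 kb and more.

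The largest falls in TKO cells included a 10 kb pair on chromosome X between chrX:130540001-130550000 and the next bin. It went from 1.33, 1.67 and 1.69 counts per M contacts to 0.615, 0.747 and 0.653 (log2 change -1.06, SE 0.14, edgeR adjusted p = 3.71e-11). The 170 kb pair at Mtnr1a, which had more KLF4 signal in ES than on day 3, fell from 0.609, 0.723 and 0.820 to 0.322, 0.354 and 0.271. Its groups did not overlap (log2 change -1.04, SE 0.19, edgeR adjusted p = 1.76e-05), but edgeR's adjusted p was 0.0708 without 0 h replicates 2 and 3 and 0.0508 without 24 h replicates 1 and 3. Hi-C gave it ratios of 9.27 and 10.7 in MEF and 5.17 and 6.70 in ES, but the counts were 27 and 32 in MEF and 31 and 37 in ES, a log2 change of -0.18 after scaling, so most of the gap in the ratio lies in the authors' expected counts. The Cdh1 pair at 40 kb fell from 1.26, 1.54 and 1.38 to 0.761, 0.934 and 1.01 (log2 change -0.49, SE 0.13, edgeR adjusted p = 0.0144), and edgeR's adjusted p was 0.419 without 0 h replicates 2 and 3, 0.243 without 24 h replicates 1 and 3 and 0.0666 without 24 h replicate 2.

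The largest rise was a 20 kb pair on chromosome 17 from chr17:56680001-56690000 to chr17:56700001-56710000. It went from 0.273, 0.268 and 0.236 counts per M contacts at 0 h to 0.498, 0.639 and 0.505 at 24 h (log2 change 1.20, SE 0.21, edgeR adjusted p = 4.08e-06) and was in no KLF4 list. This call and that of the chromosome X pair held without any 1 sample. A 30 kb pair at Zbtb38, which encodes a zinc finger protein that binds methylated DNA, went from 0.227, 0.222 and 0.174 to 0.454, 0.324 and 0.394 without overlap (log2 change 0.97, edgeR adjusted p = 0.00449). It lost the call without 0 h replicates 2 and 3 (edgeR adjusted p = 0.271) or 24 h replicates 1 and 3 (0.433).

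**Figure D5:**
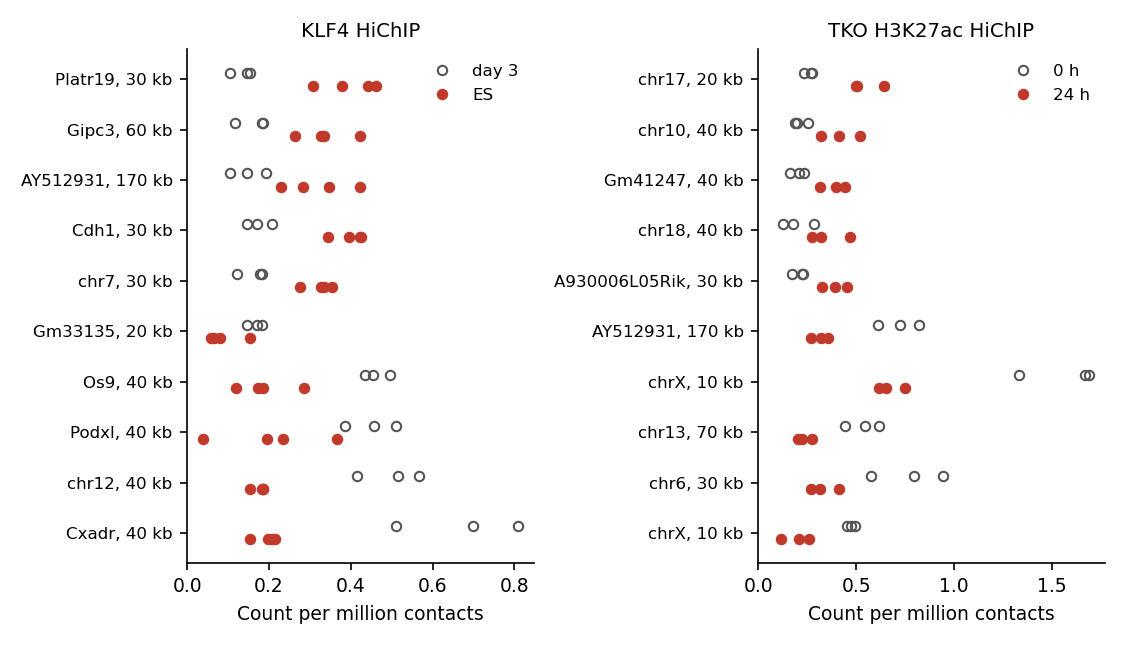
Count per M contacts (x axis), 1 point per library, for the 10 members with the largest called changes in KLF4 HiChIP (left, day 3 open and ES filled) and in TKO H3K27ac HiChIP (right, 0 h open and 24 h filled), named by gene or chromosome and distance. Cxadr shows the widest gap on the left, from 0.510 and above on day 3 to 0.216 and below in ES; on the chromosome 18 pair the groups overlap.

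The strongest long members in ES H3K27ac were chosen at 50 kb or more. The first joined chr6:125430001-125440000 to the bin of Cd9, a tetraspanin gene (chr6:125490001-125500000), at 1.63 and 1.80 counts per M contacts. It had 15 and 21 counts in MEF Hi-C, was not in ES Hi-C, and fell in TKO cells from 1.71, 1.89 and 1.90 to 1.17, 1.12 and 1.07 (log2 change -0.59, SE 0.12, edgeR adjusted p = 0.000353; 0.0918 without 0 h replicates 2 and 3). The second, chr4:101380001-101390000 to chr4:101440001-101450000, had no promoter at either end and no KLF4 listing. It went from 1.28, 1.4 and 1.17 to 0.424, 0.728 and 0.628 (log2 change -0.96, SE 0.14, edgeR adjusted p = 3.36e-08), a call that held without any 1 sample. Of the other 4, pairs at Fam131c (-0.45), on chromosome 10 at 140 kb (-0.41) and at Chchd10 and Mmp11 (-0.59) were called lower. Fam131c kept the call only without 0 h replicate 1, and had an edgeR adjusted p of 0.581, 0.585 and 0.057 without 0 h replicates 2 and 3, 24 h replicates 1 and 3, and 24 h replicate 2. The other 2 lost theirs without any 1 sample (edgeR adjusted p from 0.0872 to 0.265). The pair at Mog had 0.955, 1.12 and 1.18 at 0 h and 0.951, 1.01 and 0.961 at 24 h, which overlapped (log2 change -0.02, edgeR adjusted p = 0.972).

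The members nearest the thresholds show where the rule stops. The weakest in MEF Hi-C, such as the bins starting at 41050001 and 41120001 on chromosome 4, had a deposited signal of 15 and 15.9, at the lowest value listed. The weakest in ES H3K27ac, on chromosome 15, had a CPM of 4.34 and 3.00. Just outside stood pairs listed in MEF H3K27ac at a CPM of 3.52 and 3.00.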

How the data were processed

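The 9 deposited interaction lists of 25 libraries pair 10 kb bins, with a raw count, a CPM and a distance-normalized ratio per library, and 1 p-value and FDR per pair, per the file headers. The Hi-C column named CPM is a signal that the authors scaled by chromosome constants of unstated origin, so its depth is known only from listed counts. Bowtie2 2.2.3 and mm10 are named in the submitters' processing notes; the pair test is not given in the sources used here. The values show that deposited p-values were under 0.1 (HiChIP) or 0.01 (Hi-C) and that the authors' CPM was above 3 in the libraries they filtered on. The authors' ratio is used for Hi-C only. Both TKO lists also give the authors' gene names per bin, and the authors' TAD lists hold a score whose making is not given in the sources used here and which was not used.

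Lists were matched by bin starts. Counts were divided by the contact total of the library (count over CPM, summed over chromosomes). Pairs in both lists were tested with edgeR 4.0.16 in R 4.3.3 (quasi-likelihood, TMM, filterByExpr, only the groups compared, Benjamini-Hochberg over all pairs), tested on simulated data; DESeq2 1.42.0 was an alternative, with other scaling, filters, 50 kb, samples left out and a replicate block. Shares carry 95% Wilson intervals for counting error only, since PCR copies are not independent molecules. Genes were placed by RefSeq starts (GRCm38.p6), otherwise by the authors' names. Tables were made in Python 3.11.15 (pandas 2.3.3, numpy 2.4.6; intervals by scipy 1.17.1). Separate embryos or cultures are not stated for the replicates, so p-values measure the spread between these samples, which may be technical.

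Named pairs were the 6 strongest at 50 kb or more, Hi-C calls, the 5 largest called changes each way for KLF4 (ES and day 3) and TKO, the 6 strongest in all KLF4 lists at 30 kb or more, the 6 fullest bins, and members at listed genes or genes with most members. Members and lists were chosen with earlier results of these data known.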

Additional observations from a re-analysis of the deposited data

How the results depend on the processing

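Calls among members moved with the fit. For Hi-C, 1 call became 0 at 50 kb or more and in DESeq2, 5 with the authors' chromosome scaling, and 0 to 13 with 1 library left out; nothing is read from these, since the rule used the MEF Hi-C counts. For KLF4 in ES against day 3, 75 calls became 44 without TMM, 7 at 50 kb or more, 8 in DESeq2, and 10 to 32 without 1 day 3 library, 36 without ES replicates 3 and 4 and 94 without ES replicates 1 and 2. For ES against day 6, 10 became 202, 0, 2 and 2 to 21 in the same order, and for day 6 against day 3, 15 became 156, 2, 5 and 7 to 15. For TKO, 324 became 502, 16, 25 and 70 to 234 (74 without 0 h replicates 2 and 3, 182 without 24 h replicate 2). The cause was not tested, except that at 50 kb or more fewer pairs enter the fit. The main fits did not pair samples by replicate number. Deviations of same-numbered libraries correlated within -0.0542 and 0.0411. In most groups the libraries differed little beyond sampling noise, so such low correlations cannot show whether samples were paired. With the replicate block the calls were 5 (Hi-C), 43 (ES against day 3), 12 (ES against day 6), 9 (day 6 against day 3) and 363 (TKO, 107 higher and 256 lower). Directions reversed only for pairs that were not called: Mog in TKO (0.11 without 0 h replicates 2 and 3, 0.0076 without 24 h replicates 1 and 3), Sost (0.046 without ES replicates 1 and 2) and a chromosome 19 pair (from -0.13 to 0.049 without 1 day 3 library, the highest without replicate 3, and 0.017 without ES replicates 3 and 4) for KLF4.

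Members numbered 10542 when a MEF H3K27ac pair within 1 bin excluded them, 1986 at a MEF Hi-C FDR under 0.1, 7469 at an ES CPM of at least 2 times the lowest listed and 10792 with 1 count cutoff. The second gave a median distance of 30 kb and the third of 10 kb, and the first 3 left 3121, 867 and 2511 genes, alternatives for genes that were added after seeing the data. In this order the shares that moved were 75.1%, 90.1% and 77.6% for ES Hi-C; 10.7%, 15.01%, 16.1% and 13.8% for day 3 KLF4; 2.86%, 4.78%, 5.06% and 3.88% for day 6; 30.01%, 38.9% and 33.1% (last 3) for ES KLF4; 72.8%, 90.2% and 85.8% (last 3) for TKO 0 h; and 72.3%, 71.7%, 89.6% and 84.3% for TKO 24 h. Matching within 1 bin gave 96.7%, 35.1%, 11.7%, 59.6%, 92.8% and 91.1% for these lists. Under matching within 1 bin the ES pairs in neither MEF list reached 76.1% in ES Hi-C, 24.9% in day 3 KLF4 and 46.8% in ES KLF4, below the members each time. Low counts limit single pairs most, with a median of 29 Hi-C counts per MEF library for members.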
